A study of Mus musculus with 32 samples.

Results

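Livers of corticosterone-treated mice fed a high-protein diet (Cort HPD, 4 libraries) were compared with livers of corticosterone-treated mice fed a normal-protein diet (Cort NPD, 4 libraries). These 8 libraries were all liver libraries labelled Cort, out of 32 in the series, which holds 16 liver and 16 epididymal fat libraries. All animals were male C57BL/6 mice (C57BL/6J in the study's methods) that were 10 weeks old when treatment began, and all had eaten the NPD beforehand. Cort mice drank water with corticosterone dissolved in ethanol for 7 days, and vehicle (Veh) mice drank water with ethanol alone. The NPD supplied 20% of energy as whey protein and the HPD 60%. In the HPD the added whey took the place of corn starch, with sucrose, maltodextrin and fat held level, so that more protein and less starch cannot be told apart. Tissue was taken after a short fast. The 4 Veh NPD livers and 3 of the 4 Veh HPD livers were used for reference, since the study set aside Veh HPD replicate 4 as an outlier of its principal components.

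Corticosterone is the main glucocorticoid of mice. It acts through the glucocorticoid receptor, which in liver raises genes of glucose production and amino acid breakdown and holds down inflammatory genes. Dietary protein is broken down in hepatocytes, where the amino groups leave as urea and the carbon skeletons can become glucose. Dietary carbohydrate acts in the same cells through insulin and through the sugar-sensing transcription factor ChREBP, which drive glycolysis and fat synthesis. Type I interferon acts through transcription factors that include STAT2 and IRF9 on a short promoter motif, the interferon-stimulated response element, and so raises a shared set of antiviral genes.

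The libraries were made from the 3′ ends of transcripts and held 11626352 to 15478670 counted reads in Cort NPD and 13752553 to 17447524 in Cort HPD. Transcript levels are given as CPM, the counts per 1000000 of the library total scaled by its TMM factor, in the order of replicates 1 to 4. A pair of libraries stood apart. Cort NPD replicate 3 carried skeletal muscle transcripts, with Acta1 at 286.2 and Mylpf at 54.45 CPM of its unscaled total, so that 12 muscle genes high in that library alone were set aside, none of which had been called. In Cort HPD replicate 1 the 10 most abundant genes took 42.2% of reads, against 27.69% to 35.04% in the other 14 libraries, and the nuclear transcript Malat1 was at 54.12 CPM of its unscaled total against 168.7 to 647.4. Gm42418 was at 231.7 CPM of that total, against 8774 to 23350. The Cort groups did not overlap in the first 2 of these marks. The top 10 genes took 32.81% to 42.2% in Cort HPD and 30.38% to 30.83% in Cort NPD. Malat1 was at 54.12 to 212.1 and 260.1 to 319.2 CPM of the unscaled totals. Short transcripts leaned towards the HPD under Cort: the median longest transcript was 2611.5 bases for genes called higher, 4355 for genes called lower and 3233 for all genes tested. The longest decile of transcripts held 10 of the genes called higher and 90 of those called lower. In Veh livers the lean was the other way, with median log2 fold changes of -0.128 in the shortest decile and 0.0479 in the longest. Under Cort these medians were 0.124 and -0.209. Of 8 hepatocyte markers 3 were called higher in Cort HPD, against 3.08% of all genes tested. All 8 fold changes were positive, with a median of 0.427, and 1 was called without Cort NPD replicate 3. Their summed level was 154800 to 267600 CPM in Cort HPD and 115000 to 137600 in Cort NPD. Most of that sum was albumin (Alb), at 96880 to 152400 and 67920 to 92700 CPM of the unscaled totals. In whole tissue, fewer cells of a type and less RNA per cell cannot be told apart, and the part these differences had in the results below was not tested. The results were therefore also computed without each of both libraries and with the length trend removed.

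The most uniform group of genes that differed was the interferon-stimulated genes. A promoter motif that part of them hold is shown here for 5 genes picked among those with a match. The motif searched was GAAANNGAAA, on both strands, in the 250 bases before each gene's start in RefSeq (GRCm38.p6). It was found in 15 of the 26 interferon-stimulated genes with a promoter sequence (57.7%), in 39 of 289 genes called higher in Cort HPD (13.5%), in 10 of 258 called lower (3.88%) and in 320 of 9473 genes tested (3.38%). The 289 genes include the called interferon-stimulated genes, so that the 13.5% is not separate from the 57.7%. The sequences below run 5′ to 3′ on the gene's strand, with the motif matches in capitals. A match describes letters and is no evidence of binding. Ifit1, Ifit3 and Isg15 encode antiviral effectors that recognise foreign RNA or tag proteins, Rsad2 encodes viperin, which blocks viral RNA synthesis, and Bst2 encodes tetherin, which holds virus particles at the cell surface.
Ifit1 (chr19:34640765-34640834, plus strand): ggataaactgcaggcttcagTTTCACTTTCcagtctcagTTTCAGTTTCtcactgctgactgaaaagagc
Ifit3 (chr19:34583353-34583422, plus strand): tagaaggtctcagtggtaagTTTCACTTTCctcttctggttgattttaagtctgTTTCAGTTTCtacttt
Isg15 (chr4:156200847-156200916, minus strand): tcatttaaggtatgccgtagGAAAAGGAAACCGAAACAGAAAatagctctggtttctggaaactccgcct
Rsad2 (chr12:26456523-26456592, minus strand): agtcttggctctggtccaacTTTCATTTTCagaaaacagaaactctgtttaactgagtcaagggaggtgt
Bst2 (chr8:71537553-71537622, minus strand): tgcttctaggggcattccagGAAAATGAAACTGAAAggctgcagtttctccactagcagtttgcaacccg

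Of 12391 genes tested, 729 (5.88%) were called, with an adjusted p under 0.05 in edgeR's quasi-likelihood test. Of these, 382 (3.08% of genes tested) were higher in Cort HPD and 347 (2.80%) lower. These shares are the reference for the counts of list members called below. The median size of change among called genes was 0.922 on the log2 scale, or 1.89-fold, and 325 exceeded 1. Over all genes tested the median difference was close to 0. The 4 libraries of each group did not overlap for 656 of the called genes, against 1642 of all genes tested (13.3%), 819 higher in Cort HPD (6.61%) and 823 lower (6.64%). The count fell to 356 without Cort NPD replicate 3 and to 371 when Veh HPD replicate 4 was kept, and was 623 without Cort HPD replicate 1. With library totals and no TMM factors it was 951, of which 23.3% were higher, against 52.4% with the factors, and the median of all genes then moved to -0.18.

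**Figure D1:**
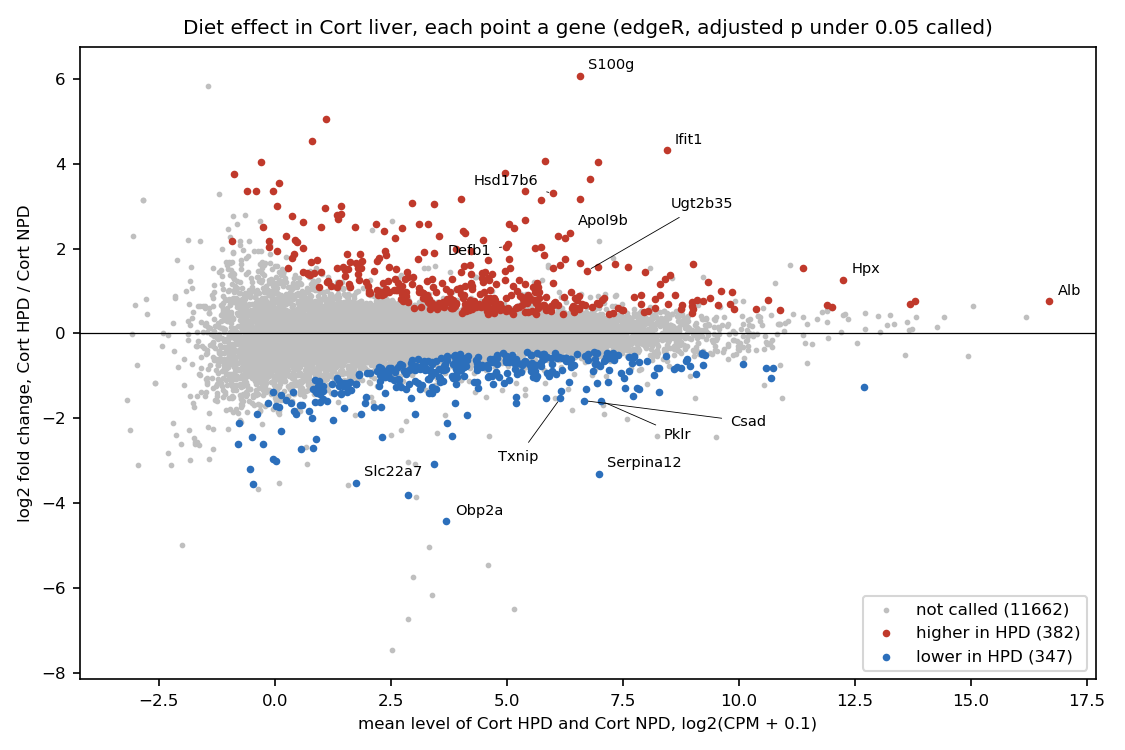
Each point is one of the 12391 genes tested, with the mean level of the 8 Cort libraries as log2(CPM + 0.1) on the horizontal axis and the log2 fold change, Cort HPD over Cort NPD, on the vertical axis. Red points are the 382 genes called higher in Cort HPD and blue points the 347 called lower, at levels from below 1 CPM up to albumin (Alb).

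Hsd17b6 had the smallest p-value. This gene of chromosome 10, 127990936 to 128007611, minus strand, GRCm38 encodes an enzyme that oxidises steroid hormones and retinoids. It was counted at 9.15, 17.8, 9.76 and 10.3 CPM in Cort NPD and at 144, 104, 87.3 and 126 CPM in Cort HPD. The groups were far apart, with a log2 fold change of 3.30 ± 0.27 (SE), or 9.84-fold (edgeR adjusted p = 2.91e-06). In Veh mice the level was high on both diets, at 183, 221, 116 and 149 CPM with the NPD and 62.9, 104 and 123 CPM with the HPD. The low Cort NPD libraries were therefore the ones that stood apart from the other 11.

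Several of the next genes encode secreted or conjugating proteins of hepatocytes and epithelia. Defb1, the antimicrobial peptide beta-defensin 1 (chromosome 8, 21776599 to 21795185, plus strand, GRCm38), was at 10.1, 12.5, 10.1 and 16.2 CPM in Cort NPD and 61.5, 48.3, 50.8 and 41.8 CPM in Cort HPD, a log2 fold change of 2.05 ± 0.20 (adjusted p = 3.76e-06). Ugt2b35, a glucuronosyltransferase, was at 48.8, 48.3, 56.8 and 70.9 CPM and 180.4, 158, 165 and 125 CPM (1.48 ± 0.17, adjusted p = 2.23e-05). Ugdh makes the UDP-glucuronic acid that such transferases use, and was at 59.3, 108, 58.5 and 86.8 CPM and 265, 247, 254 and 203 CPM (1.63 ± 0.19, adjusted p = 2.23e-05). The groups did not overlap for any of these. Other Ugt2b genes are near-identical in parts, so that reads of Ugt2b35 may not be wholly its own.

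Slc3a1 encodes the heavy chain of a cystine and dibasic amino acid transporter. Its levels were 24.1, 47.4, 27.8 and 38.4 CPM in Cort NPD and 162, 106, 101 and 99 CPM in Cort HPD, a log2 fold change of 1.76 ± 0.20 (adjusted p = 2.23e-05). In Veh livers it lay at 21.7, 17.4, 16.3 and 17.2 CPM with the NPD and 23.4, 28 and 19.4 CPM with the HPD, below every Cort HPD library. Mpeg1, a pore-forming protein of macrophages, was at 8.92, 9.05, 13.7 and 16.9 CPM and 68.1, 43, 54.4 and 46.6 CPM (2.12 ± 0.24, adjusted p = 2.23e-05), and Shisa5, a membrane protein of the endoplasmic reticulum, at 27.1, 41.3, 30.9 and 29.9 CPM and 112, 103, 79.8 and 83.5 CPM (1.55 ± 0.18, adjusted p = 2.23e-05). The steepest called rise belonged to S100g, the calcium-binding protein calbindin-D9k, named here after its values were seen. It was at 0.461, 3.45, 1.51 and 5.41 CPM in Cort NPD and 189, 175, 342 and 40.7 CPM in Cort HPD, a log2 fold change of 6.07 ± 0.84 (adjusted p = 0.00169). The S100g levels in Veh livers stayed under 4 CPM in all 7 libraries, with a highest value of 3.51 CPM.

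Among the genes that fell, Slc22a7, an organic anion transporter of the hepatocyte membrane, was at 8.23, 4.83, 5.75 and 5.16 CPM in Cort NPD and 0.508, 0.0581, 1.07 and 0.519 CPM in Cort HPD. The difference was -3.51 ± 0.40 on the log2 scale (adjusted p = 2.23e-05). Its Cort HPD libraries held only 6, 1, 14 and 7 reads, so that the size of the fall is uncertain. Over the alternative settings it ran from -4.20 to -3.08. Csad encodes the decarboxylase that leads from cysteine to taurine, and was at 202, 141, 109 and 156 CPM and 60.8, 37.5, 54.6 and 50.2 CPM (-1.58 ± 0.18, adjusted p = 2.23e-05). Txnip, a thioredoxin-binding protein whose transcription follows glucose, was at 94.3, 122, 116 and 89.4 CPM and 36.5, 36.3, 38.3 and 34.9 CPM (-1.53 ± 0.19, adjusted p = 4.45e-05). The 4 Cort HPD values of Txnip lay within 4 CPM of each other and below all 11 other libraries.

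Mylk, the myosin light chain kinase, fell from 109, 106, 124 and 105 CPM to 41.8, 46.1, 55.2 and 58.9 CPM (-1.14 ± 0.14, adjusted p = 4.45e-05). Parva, an actin-linking adhesion protein, went from 63.5, 59.9, 74.9 and 69 CPM to 29.98, 32.5, 30.04 and 40.8 CPM (-1.0 ± 0.14, adjusted p = 0.000286), and Aqp1, a water channel, from 62.7, 53.1, 71.7 and 80.8 CPM to 26.8, 39.4, 30.7 and 32 CPM (-1.06 ± 0.16, adjusted p = 0.000429). Neither Parva nor Aqp1 overlapped between the Cort groups. Nat8, an acetyltransferase that finishes mercapturic acids, was at 13.5, 15.6, 14.3 and 17.1 CPM and 6.78, 5.34, 5.81 and 4.82 CPM (-1.41 ± 0.21, adjusted p = 0.000344). Cyp2d40 (-1.53 ± 0.20) and Gm17634 (-1.15 ± 0.16) fell as well, and both were also called lower with the HPD in Veh livers. Pklr, Pcx and Ppp1r3b complete the 12 falls with the smallest p-values and are given with the carbohydrate genes. The calls of Nat8 and Cyp2d40 were lost when Veh HPD replicate 4 was kept.

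A pair of larger falls is added after their values were seen. Serpina12, the secreted serpin vaspin, was at 317, 136, 319 and 143 CPM in Cort NPD and 28.5, 23.9, 23.2 and 17.1 CPM in Cort HPD (-3.30 ± 0.42, adjusted p = 0.00068). Obp2a, a lipocalin, was at 41.4, 9.74, 42.1 and 5.34 CPM and 1.19, 0.93, 1.76 and 0.742 CPM (-4.42 ± 0.72, adjusted p = 0.00405), while in Veh livers it did not exceed 1.12 CPM. The Cort NPD libraries themselves fell into a higher pair (replicates 1 and 3) and a lower pair (replicates 2 and 4) for both genes, and each pair was above every Cort HPD library.

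Interferon-stimulated genes were higher in Cort HPD almost throughout the list. Of 37 listed genes, 36 were tested, 33 rose, none fell, and the median log2 fold change was 2.30 against -0.00866 over all genes. Of the antiviral effectors 25 of 27 rose, and of the RNA sensors and transcription factors 8 of 9. The groups overlapped for Oas1a alone. The summed level of the list was 779.4, 1056, 909.5 and 851.6 CPM in Cort NPD and 6243, 3165, 3079 and 2673 CPM in Cort HPD. Cort HPD replicate 1, one of the libraries that stood apart, was the highest. Without it 31 members rose with a median of 2.16, without Cort NPD replicate 3 it was 31 as well, and without both 26.

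Ifit1 was at 24.8, 42.5, 35.8 and 29.2 CPM in Cort NPD and 1568, 414, 377 and 289 CPM in Cort HPD (4.32 ± 0.77, adjusted p = 0.00849), and 3.45 without Cort HPD replicate 1. Isg15 was at 14.9, 24.4, 13.6 and 13.5 CPM and 414, 142, 133 and 135 CPM (3.63 ± 0.62, adjusted p = 0.00622). In both, Cort HPD replicate 1 was the highest by a wide margin and the other 3 Cort HPD libraries were still above every Cort NPD library. Rsad2 did not share that spread, with 12.1, 22.8, 22 and 19.4 CPM and 175, 190.4, 145 and 179 CPM (3.18 ± 0.55, adjusted p = 0.00637). Bst2, the fifth gene whose promoter is shown, went from 34, 46.8, 34.1 and 39.2 CPM to 69.3, 84.2, 120.0 and 78.7 CPM (1.19 ± 0.17, adjusted p = 0.000286).

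Usp18, which removes ISG15 from proteins and dampens the interferon receptor, was at 5.92, 10.4, 8.02 and 5.28 CPM in Cort NPD and 115, 71.1, 67.2 and 50.2 CPM in Cort HPD (3.36 ± 0.36, adjusted p = 0.000138). Mx1, an antiviral GTPase, had 3, 1, 1 and 1 reads in Cort NPD and 55, 69, 44 and 52 reads in Cort HPD, too few in the first group for a fold change. Dhx58 and Ifih1 encode cytosolic RNA sensors. Dhx58 rose from 3.61, 5.86, 4.16 and 4.62 CPM to 21.4, 13.7, 16.9 and 15.5 CPM (1.89 ± 0.25, adjusted p = 9.88e-05), and Ifih1 from 11.8, 13.9, 13.8 and 11.2 CPM to 38.9, 29.1, 28.9 and 28.8 CPM (1.31 ± 0.19, adjusted p = 0.000308). Trim34a and Ifi27 rose by 1.91 ± 0.26 and 1.57 ± 0.22 on the log2 scale. Irf7, a transcription factor named after its values were seen, was at 6.92, 19.999, 5.45 and 10.5 CPM and 152, 74.1, 89.6 and 65 CPM (3.16 ± 0.45, adjusted p = 0.00163).

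The members that were not called were Stat2, a transcription factor of the interferon response, and the oligoadenylate synthetases Oas1a and Oas1g. Stat2 was at 9.92, 11.7, 12.6 and 14.2 CPM and 18.2, 14.4, 18.2 and 16.5 CPM (0.47 ± 0.21, adjusted p = 0.197). Oas1a stayed under 3 CPM in every Cort library. Oas1g had no read in any Cort NPD library, and its Cort HPD mean was at least 9.66-fold higher when set against 3 reads over the Cort NPD group; with that bound in place of its fitted value the list median remained 2.30. Oas1a and Oas1g, Ifit3 and its copy, and Apol9a and Apol9b are near-identical pairs whose reads the counting could split. The apolipoprotein L genes, which lie outside the list, moved alike, with Apol9b at 26.8, 40.9, 21.3 and 18 CPM and 169.7, 138, 126 and 116 CPM (2.36 ± 0.22, adjusted p = 2.91e-06).

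In Veh livers the same list had a median of 0.982 and no member was called by edgeR, with 21 at an unadjusted p under 0.05, all higher with the HPD, and 3 called by DESeq2. The summed level was 1340 to 1676 CPM in Veh NPD and 3089, 1431 and 1508 CPM in Veh HPD replicates 1 to 3. A single Veh HPD library thus lay above all Veh NPD libraries. In Cort NPD the summed level was below that of every Veh NPD library.

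**Figure D2:**
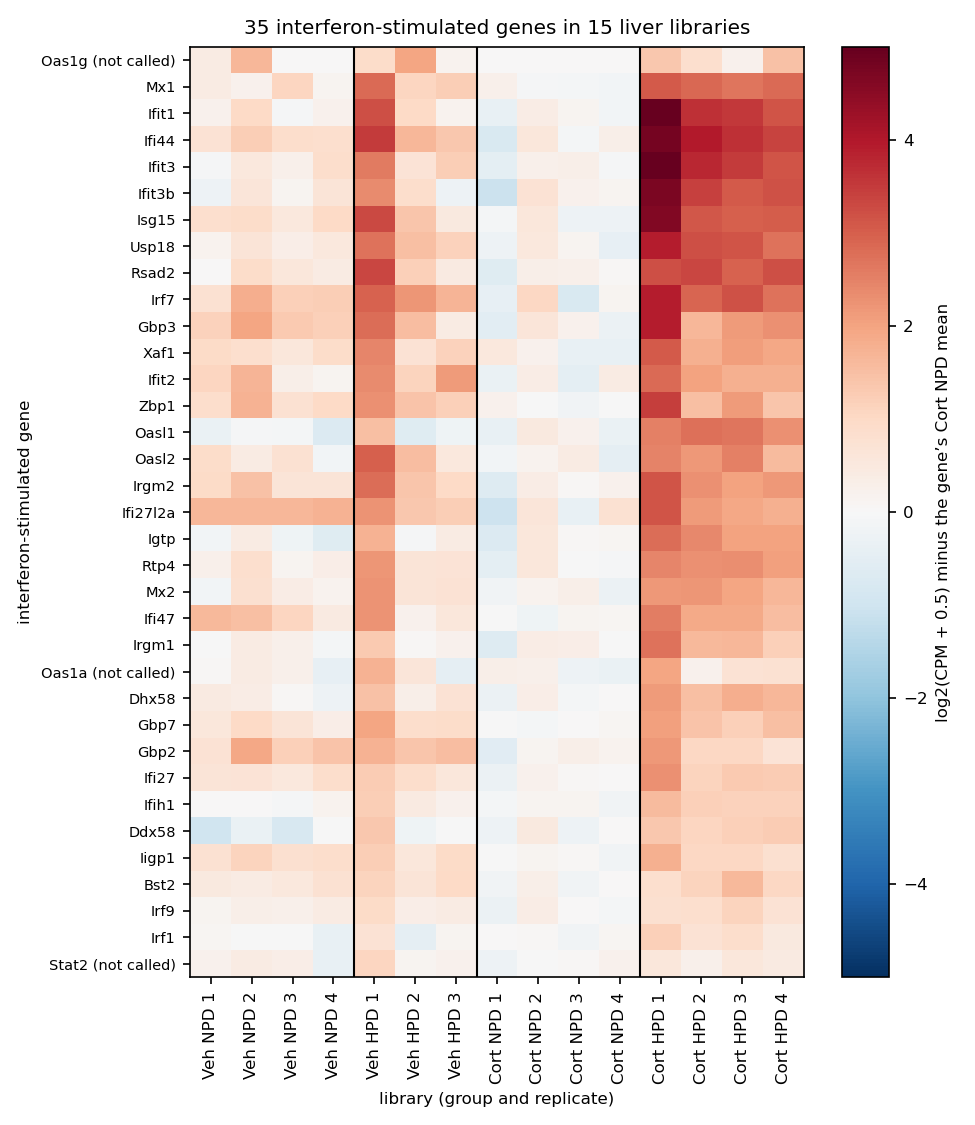
Rows are 35 of the 36 tested interferon-stimulated genes and columns the 15 liver libraries, with colour giving log2(CPM + 0.5) minus the mean of the 4 Cort NPD libraries. All 4 Cort HPD columns are red for nearly every gene, with the deepest red in Cort HPD replicate 1, and Veh HPD replicate 1 is redder than the other Veh HPD columns.

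Of 12 tested MHC class I and immunoproteasome genes, which present antigen, 7 rose in Cort HPD and none fell by edgeR, with a median of 0.761. Over all 18 MHC genes the 7 calls became 3 without Cort NPD replicate 3 and 1 without both that library and Cort HPD replicate 1. Psmb9, a catalytic subunit of the immunoproteasome, was at 23.5, 21.7, 11.8 and 16 CPM in Cort NPD and 57.5, 36, 46.1 and 36.3 CPM in Cort HPD (1.27 ± 0.20, adjusted p = 0.00069). H2-D1, a class I heavy chain, was at 304, 343, 316 and 385 CPM and 716, 466, 525 and 429.9 CPM (0.66 ± 0.16, adjusted p = 0.0162). The peptide transporter Tap1 rose by 1.13 ± 0.24 on the log2 scale, and Psmb8 by 0.83 ± 0.19. B2m, the class I light chain, and Psmb10 rose by 0.66 ± 0.18 and 0.65 ± 0.18, and these calls were lost in 9 and 13 of 25 alternative settings. None of 6 class II genes was called by edgeR or DESeq2, and none had an unadjusted p under 0.05. The H2-D1 call was lost in 3 settings, among them without Cort NPD replicate 3 (adjusted p = 0.0511). Tap2, the partner of Tap1, rose by 0.75 ± 0.22 with overlapping groups (lost in 14).

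Of 12 tested chemokines, all at low levels, 4 rose in Cort HPD and 5 had an unadjusted p under 0.05. All 12 had a positive fold change, with a median of 0.609. Cxcl9, an interferon-induced attractant of T cells, was at 1, 2.24, 0.983 and 3.58 CPM in Cort NPD and 14.1, 7.49, 13.8 and 9.72 CPM in Cort HPD (2.49 ± 0.43, adjusted p = 0.00345), while Veh livers held 18.4, 36.9, 11.1 and 18.6 CPM with the NPD and 22.1, 18 and 21.3 CPM with the HPD. The Cort HPD values of Cxcl9 thus lay between those of Cort NPD and most Veh livers. Cxcl10 was at 0.769, 1.64, 2.65 and 3.95 CPM and 26.5, 22, 10.1 and 17.3 CPM (3.04 ± 0.64, adjusted p = 0.0174, and 0.0508 without Cort NPD replicate 3). Ccl5 and Ccl9 rose by 2.62 ± 0.48 and 0.74 ± 0.14. Of 9 adhesion genes Pecam1 alone was called, lower by edgeR with an adjusted p of 0.0451, and that call was lost in 16 of 25 alternative settings. None of 21 phagocytic receptors was called by edgeR or DESeq2, with 4 at an unadjusted p under 0.05.

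Of 65 tested genes of amino acid breakdown 10 rose and 2 fell, with a median log2 fold change of 0.199, and the median was 0.177 in Veh livers. With library totals and no TMM factors the median was 0.0511. Tat, tyrosine aminotransferase and a classical glucocorticoid target, was at 167, 147, 123 and 103 CPM in Cort NPD and 437, 334, 332 and 369 CPM in Cort HPD (1.45 ± 0.38, adjusted p = 0.0418). Veh livers varied widely in Tat, from 151 to 829 CPM over both diets, and its call was lost in 12 of 25 alternative settings. Hgd, homogentisate dioxygenase, rose by 0.57 ± 0.14, with a call lost without Cort NPD replicate 3 (adjusted p = 0.0554).

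Agxt turns glyoxylate into glycine, and was at 40.4, 30.9, 25.5 and 22.9 CPM in Cort NPD and 56.2, 55.2, 79.96 and 64.2 CPM in Cort HPD (1.09 ± 0.17, adjusted p = 0.000513). All 4 Cort HPD libraries were above Cort NPD and below the Veh NPD range of 119 to 145 CPM. Cth, cystathionine gamma-lyase of cysteine synthesis, was at 275, 217, 188 and 142 CPM and 777, 413, 495 and 435 CPM (1.37 ± 0.24, adjusted p = 0.00162). Oat, ornithine aminotransferase, was at 178, 393, 192 and 343 CPM and 587, 489.8, 448 and 543 CPM (0.90 ± 0.20, adjusted p = 0.0105). Cort NPD ran in a lower pair (replicates 1 and 3) and a higher pair (replicates 2 and 4) for Oat, both under Cort HPD. The branched-chain list had 3 rises among 13 genes: Dbt (0.68 ± 0.16), Hibadh (0.60 ± 0.14) and Mccc2 (0.72 ± 0.18). The falls were Csad, given above, and Dmgdh, which breaks down dimethylglycine, at 696, 563, 618 and 620.4 CPM and 373, 344, 399 and 352 CPM (-0.77 ± 0.13, adjusted p = 0.0011). None of the tryptophan, histidine, lysine or glutamate groups held a called gene by edgeR, with 1 of 6, 0 of 4, 1 of 4 and 2 of 7 at an unadjusted p under 0.05, and 1, 0, 0 and 1 called by DESeq2.

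Of 6 urea cycle enzymes 2 rose, with a median of 0.429, and neither rise was called without Cort NPD replicate 3. Arg1, arginase, was at 1198, 1106, 990.1 and 969 CPM in Cort NPD and 1716, 1603, 1707 and 1348 CPM in Cort HPD (0.58 ± 0.16, adjusted p = 0.0348, lost in 10 of 25 settings). Ass1, argininosuccinate synthase, was at 719, 805, 558 and 657 CPM and 603, 1321, 1185 and 1318 CPM (0.69 ± 0.20, adjusted p = 0.0454, lost in 14). Cort HPD replicate 1 was within the Cort NPD range for Ass1 and below it for Cps1, which makes carbamoyl phosphate and was at 1102, 1044, 1458 and 1272 CPM and 978, 1817, 1869 and 1742 CPM (0.39 ± 0.20, adjusted p = 0.255). Rhbg, an ammonia transporter of the cells around the central vein, fell from 29.7, 25.8, 17.4 and 16.2 CPM to 13.5, 13, 8.71 and 9.5 CPM (-0.99 ± 0.26, adjusted p = 0.0281, lost in 5), and the mitochondrial glutamate carrier Slc25a22 fell by 0.73 (call lost in 8 of 25). Of 22 amino acid transporters 3 rose, against 3.08% of all genes tested, and 1 fell, against 2.80%. The rises were Slc3a1, Slc38a4 (0.57 ± 0.15) and Slc38a3 (0.51 ± 0.15), and Slc6a13 fell by 0.49. Without Cort NPD replicate 3, 1 of the 22 rose. The calls of the last 3 were lost in 8, 17 and 8 of 25 settings. None of 18 genes of serine synthesis and the ATF4 stress response was called by edgeR, DESeq2 or limma voom, with 2 at an unadjusted p under 0.05 and a median of 0.0111. In Veh livers the median of that list was 0.606, with 8 genes at an unadjusted p under 0.05, all higher with the HPD, and 1 called.

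Of 10 tested genes of fructose and sucrose breakdown 3 fell in Cort HPD and none rose by edgeR, with a median of -0.514. Of 14 in the list of the carbohydrate-sensing factor ChREBP 3 fell and none rose by edgeR, with a median of -0.475, and Khk is in both lists. Khk, ketohexokinase, which commits fructose to the liver, was at 742, 824, 573 and 700.1 CPM in Cort NPD and 345, 429, 307 and 372 CPM in Cort HPD (-0.97 ± 0.17, adjusted p = 0.00144). Veh NPD livers held 247, 282, 332 and 401 CPM, so that Cort HPD lay nearer to them than Cort NPD did. Glyctk, glycerate kinase, fell by 0.86 and Sord, sorbitol dehydrogenase, by 0.52, and the Glyctk call was lost without Cort NPD replicate 3 (adjusted p = 0.0643). The Sord call was lost in 9 of 25 alternative settings.

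Pklr, liver pyruvate kinase and a ChREBP target, was at 223, 168, 162 and 234 CPM in Cort NPD, 59, 89.9, 38.2 and 73.5 CPM in Cort HPD and 62.9, 43.3, 74.3 and 77.9 CPM in Veh NPD (-1.59 ± 0.22, adjusted p = 0.000286). Every Cort NPD library was above every other liver library. By edgeR Pklr was the only gene called among 24 of glycolysis and pyruvate metabolism, against 5.88% of all genes tested. The median of the 24 was -0.0283, and DESeq2 and limma voom called 2 each. Txnip, given above, also belongs to the ChREBP list, with Khk. Mlxipl, which encodes ChREBP itself, was at 40.1, 33.3, 51.3 and 47.3 CPM and 29, 45.7, 34 and 43 CPM (-0.18 ± 0.25, adjusted p = 0.734), with overlap between the diets.

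In glycogen metabolism, Ppp1r3b, the subunit that brings protein phosphatase 1 to glycogen, was at 322, 238, 418 and 264 CPM in Cort NPD and 125, 117, 106 and 99.6 CPM in Cort HPD (-1.47 ± 0.22, adjusted p = 0.000376). Veh NPD libraries held 122, 135, 152 and 197 CPM, below all Cort NPD libraries. Pygl, liver glycogen phosphorylase, was at 663, 634, 802 and 885 CPM and 382, 467, 475 and 447 CPM (-0.75 ± 0.16, adjusted p = 0.00635), and the call was lost when Veh HPD replicate 4 was kept. Ugp2, which makes UDP-glucose, moved the other way, from 401, 509, 359 and 495 CPM to 888, 771, 819 and 513 CPM (0.76 ± 0.20, adjusted p = 0.0238, lost in 7 of 25 settings). UDP-glucose is also the substrate of UGDH, described above. The remaining 11 of 14 glycogen genes tested were not called.

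**Figure D3:**
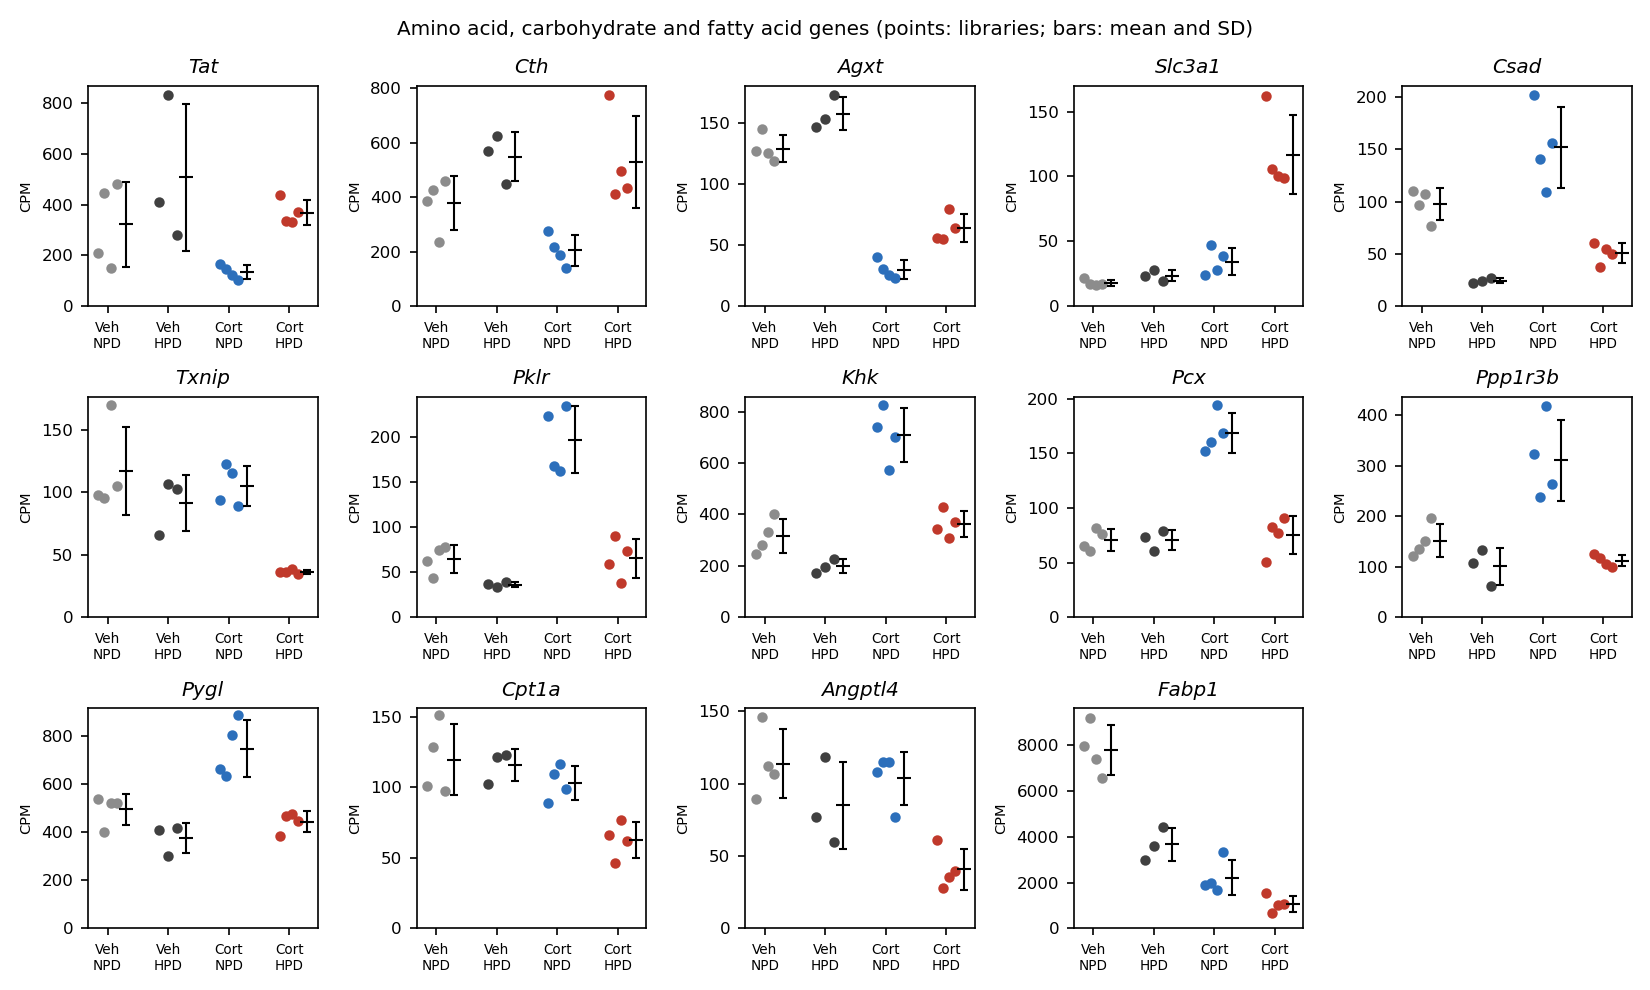
Each panel shows one gene in CPM for the 4 liver groups, with points for libraries and bars for the mean and SD. Tat, Cth, Agxt and Slc3a1 are higher in Cort HPD than in Cort NPD, the other 10 genes are lower, and Pklr, Khk, Pcx and Ppp1r3b are higher in Cort NPD than in the other groups.

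Of 19 genes of gluconeogenesis 1 rose and 3 fell, against 3.08% and 2.80% of all genes tested. Their median was -0.0698, and 2 fell without Cort NPD replicate 3. Pcx, pyruvate carboxylase, was at 152, 161, 194 and 169 CPM in Cort NPD and 50.6, 82.7, 77.3 and 90.9 CPM in Cort HPD (-1.16 ± 0.17, adjusted p = 0.000286), while Veh NPD held 64.8, 60.3, 82.1 and 76 CPM and Veh HPD 73.3, 61 and 78.8 CPM. The Cort NPD libraries were thus the high ones again. Pck1, the cytosolic enzyme that makes phosphoenolpyruvate, was at 1808, 1762, 1515 and 1121 CPM and 1527, 1420.0, 1152 and 1813 CPM (-0.07 ± 0.21, adjusted p = 0.889), and G6pc, the glucose-6-phosphatase, at 468, 328, 368 and 413 CPM and 253, 591, 375 and 536 CPM (0.15 ± 0.23, adjusted p = 0.755). Both overlapped. Foxo1, a transcription factor that insulin holds out of the nucleus, was at 67.4, 56.6, 64 and 44.9 CPM and 27.5, 35.3, 38.3 and 32 CPM (-0.81 ± 0.18, adjusted p = 0.00923). Creb3l3 fell by 0.56 (adjusted p = 0.0497, lost in 15 of 25 settings), and Crtc2, a coactivator of CREB, went from 2.54, 2.24, 1.13 and 1.03 CPM to 10.1, 3.37, 3.13 and 4.01 CPM (1.57 ± 0.41, adjusted p = 0.0317, lost in 6, and 0.0744 without Cort HPD replicate 1). Ppargc1a was at 10.8, 15.7, 10.7 and 12.5 CPM and 10.2, 10.8, 14 and 12.7 CPM (adjusted p = 0.919).

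Of 27 genes of insulin, IGF and glucagon signalling 2 rose and 3 fell, against 3.08% and 2.80% of all genes tested. Their median was -0.284, and 1 fell without Cort NPD replicate 3. Insr, the insulin receptor, was at 36.2, 34.8, 61.6 and 55.1 CPM in Cort NPD and 24.8, 26.1, 35.7 and 29.3 CPM in Cort HPD (-0.70 ± 0.18, adjusted p = 0.0279), with overlap at the edge, and 0.132 without Cort NPD replicate 3. Gcgr, the glucagon receptor, was at 55.5, 47, 47.3 and 44.8 CPM and 40.2, 38.7, 33.9 and 34.4 CPM (-0.40 ± 0.13, adjusted p = 0.075); the groups did not overlap but the test was missed. Egfr fell by 1.31 with overlapping groups (lost in 15 of 25 settings). The secreted factors Fst, follistatin, and Angptl8 rose by 1.77 ± 0.44 and 0.76 ± 0.21, calls lost in 8 and 11 settings. Fgf21, a fasting and amino acid-responsive hormone, was at 3.15, 8.1, 2.5 and 5.95 CPM and 2.63, 4.47, 2.22 and 3.12 CPM (-0.65 ± 0.52, adjusted p = 0.519). Igf1 (0.02 ± 0.19), Igfbp1 (0.08 ± 0.60) and Irs2 (-0.05 ± 0.34) had overlapping groups and adjusted p-values of 0.96.

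The glucocorticoid receptor gene Nr3c1 was at 36.1, 27.8, 40.4 and 37.2 CPM in Cort NPD and 45.7, 34.3, 48.4 and 36.1 CPM in Cort HPD (0.21 ± 0.16, adjusted p = 0.47). Of 24 genes in the list of receptor targets and steroid handling 1 rose, Tat, and 3 fell, against 3.08% and 2.80% of all genes tested. Their median was -0.321, and 1 fell without Cort NPD replicate 3. Zbtb16, a zinc finger factor induced by glucocorticoids, was at 17.1, 5.69, 5.37 and 4.74 CPM and 0.169, 1.39, 2.83 and 1.56 CPM (-2.44 ± 0.63, adjusted p = 0.0415, lost in 13 of 25 settings). Srd5a1, a steroid 5-alpha-reductase, was at 59.5, 34.4, 43.9 and 37.4 CPM and 28.9, 26.1, 21.9 and 30.4 CPM (-0.71 ± 0.18, adjusted p = 0.0222, lost in 6), and 0.057 without Cort NPD replicate 3. The third of the falls was Angptl4. Its levels are given with the lipid genes.

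Of 35 tested genes of fatty acid oxidation and ketone production 8 fell in Cort HPD and 27 were not called by edgeR, with a median of -0.364, and -0.153 in Veh livers. DESeq2 called 10 lower and 2 higher, and 5 fell by edgeR without Cort NPD replicate 3. Angptl4, a lipoprotein lipase inhibitor and PPAR-alpha target, was at 108, 115, 115 and 76.6 CPM in Cort NPD and 60.7, 27.9, 35.3 and 39.3 CPM in Cort HPD (-1.35 ± 0.24, adjusted p = 0.00221). Fabp1, the liver fatty acid binding protein, was at 1871, 2001, 1656 and 3319 CPM and 1534, 677, 1035 and 1045 CPM (-1.04 ± 0.23, adjusted p = 0.0101). In Veh livers Fabp1 was far higher, at 7946, 9197, 7376 and 6586 CPM with the NPD and 2992, 3588 and 4434 CPM with the HPD, a difference of -1.08 ± 0.26 that was not called (adjusted p = 0.102).

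Cpt1a, the gate of mitochondrial fatty acid entry, was at 88.8, 109, 117 and 98.5 CPM in Cort NPD and 65.9, 46, 76.5 and 61.8 CPM in Cort HPD (-0.72 ± 0.17, adjusted p = 0.0131, and 0.0542 without Cort NPD replicate 3). Its levels did not overlap between the diets. Pex11a, a peroxisomal membrane protein, fell by 0.93 and Acot1, a thioesterase, by 1.93, from 31.6, 41.4, 19.3 and 18.3 CPM to 8.72, 3.66, 7.34 and 9.5 CPM (adjusted p = 0.0266, lost in 8 of 25 settings). Creb3l3, given above, also fell. The median of the list was negative in all settings run for it, with 5 falls without Cort NPD replicate 3 and 7 without Cort HPD replicate 1.

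Of 37 genes of fatty acid and triglyceride synthesis Plin4, a lipid droplet coat protein, was the only one called by edgeR, and it fell by 1.76 (adjusted p = 0.0217; 0.0701 without Cort NPD replicate 3 and 0.0513 without Cort HPD replicate 1). DESeq2 and limma voom called 5 genes of the list each, and 13 had an unadjusted p under 0.05, 10 of them lower. The median of the list was -0.373 under Cort and 0.187 in Veh livers. The Cort NPD libraries differed among themselves: Fasn, fatty acid synthase, was at 112, 136, 110.3 and 438 CPM in Cort NPD and 68.6, 255, 110.0 and 152 CPM in Cort HPD (-0.44 ± 0.55, adjusted p = 0.698), and Scd1 at 1275, 2607, 1291 and 4206 CPM and 672, 1423, 1716 and 1826 CPM (-0.73 ± 0.46, adjusted p = 0.396). Cort NPD replicate 4 was the highest of the 8 for both. Srebf1, which encodes a lipogenic transcription factor, was higher in every Cort HPD library, at 21.3, 24.8, 15.2 and 23.4 CPM against 13.5, 6.21, 10.2 and 13.7 CPM, and missed the test (0.95 ± 0.32, adjusted p = 0.0966). None of 27 genes of cholesterol synthesis was called by edgeR or DESeq2, and 3 were by limma voom, with 4 at an unadjusted p under 0.05. Of 26 apolipoprotein and lipoprotein genes 2 fell, Angptl4 and the endocytic receptor Lrp1, the latter from 147, 128, 167 and 154 CPM to 84.4, 78.8, 73.8 and 87.2 CPM (-0.88 ± 0.15, adjusted p = 0.000875).

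In bile acid metabolism 2 of 21 genes rose and 2 fell, against 3.08% and 2.80% of all genes tested, and 1 rose and none fell by edgeR without Cort NPD replicate 3. Cyp2c70, which makes the muricholic acids of mice, was at 194, 112, 198 and 156 CPM in Cort NPD and 327, 239, 370.4 and 309 CPM in Cort HPD (0.92 ± 0.18, adjusted p = 0.00442). Slco1a1, a sinusoidal uptake carrier, was at 587, 242, 446 and 243 CPM and 212, 194, 164 and 201 CPM (-0.98 ± 0.23, adjusted p = 0.0159, and 0.0589 without Cort NPD replicate 3). Abcb4, the phospholipid exporter, fell by 0.68 and Abcc3, an exporter to blood, rose by 0.95, and these calls were lost in 12 and 16 of 25 settings. Cyp7a1, the rate-limiting enzyme of bile acid synthesis, was at 97.3, 101, 85.4 and 47.3 CPM and 172, 104, 156 and 79.8 CPM (adjusted p = 0.621).

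Of 21 listed genes of drug conjugation 4 rose in Cort HPD and none fell by edgeR, with a median of 0.299. Ugt2b35, given above, is outside this list. Over all 46 genes of drug metabolism 2 rose without Cort NPD replicate 3, 2 rose and 3 fell without Cort HPD replicate 1, and 2 rose and 7 fell with library totals and no TMM factors. None of the 21 P450 genes in the list was called by edgeR, 1 was by DESeq2 and 3 by limma voom, and 6 had an unadjusted p under 0.05. Cyp2d40 and Cyp2c70, which were called and are given above, lie outside those 21. Gsta2, a glutathione transferase, was at 20.8, 25.6, 10.1 and 20.7 CPM in Cort NPD and 73.1, 70.3, 100.1 and 68.6 CPM in Cort HPD (2.02 ± 0.35, adjusted p = 0.00396). Its reads cannot be told apart with certainty from those of near-identical Gsta genes. Gsta4, which clears lipid aldehydes, rose by 1.09 ± 0.26 and Gstm1 by 0.83 ± 0.23 (lost in 12 of 25 settings). Ugt2b5 rose by 0.79 with overlapping groups (lost in 18). In the antioxidant list 2 of 17 rose, the median was 0.395, and 8 had an unadjusted p under 0.05, all higher. The called pair was Ugdh, given above, and Gpx1, glutathione peroxidase 1, which was at 1876, 1731, 1246 and 1291 CPM and 2469, 2127, 2237 and 2142 CPM (0.55 ± 0.16, adjusted p = 0.0425, lost in 12).

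Plasma proteins of hepatocytes moved in both directions. Of 28 acute phase genes 6 rose and 1 fell, against 3.08% and 2.80% of all genes tested. Their median was 0.225, and 0.0314 without Cort HPD replicate 1. Without Cort NPD replicate 3, 4 rose and 1 fell. Hpx, the heme carrier hemopexin, was at 2904, 3202, 2415 and 2839 CPM in Cort NPD and 7436, 6134, 8795 and 5045 CPM in Cort HPD (1.27 ± 0.19, adjusted p = 0.000309). Apcs, serum amyloid P, was at 202, 209, 187 and 189 CPM and 576, 489, 421 and 433 CPM (1.29 ± 0.21, adjusted p = 0.000841), and Orm3 at 34.1, 42.7, 27.6 and 27 CPM and 74.4, 60.8, 69.4 and 59.9 CPM (1.01 ± 0.18, adjusted p = 0.00162). Each Cort HPD library was above each Cort NPD library for all of these. Hp, haptoglobin, rose by 0.62 (lost in 7 of 25 settings). The rises included genes that acute inflammation lowers, Ttr (0.77 ± 0.17) and Alb (0.76 ± 0.22, lost in 16), and Alb was highest in Cort HPD replicate 1.

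Hamp, the iron-regulating hormone hepcidin, was at 370.0, 332, 261 and 349 CPM in Cort NPD and 151, 109.6, 145 and 121 CPM in Cort HPD (-1.32 ± 0.23, adjusted p = 0.00163). Tfrc, the transferrin receptor, was at 12.2, 15.4, 17.5 and 14.5 CPM and 66.9, 47.8, 44.6 and 42.9 CPM (1.76 ± 0.27, adjusted p = 0.000841), and it was named after its values were seen. In Veh livers Tfrc also rose with the HPD, from 9.63, 12.4, 6.23 and 12.8 CPM to 56.9, 68.2 and 24.9 CPM (2.28 ± 0.29, adjusted p = 0.00146). Hamp in Veh livers was at 627, 690.2, 533 and 1191 CPM with the NPD and 462, 440.4 and 798 CPM with the HPD and was not called (adjusted p = 0.617).

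Among 22 genes listed under IL-6 and JAK-STAT signalling, a list that also holds the interleukin 1 receptor, 2 receptors fell and none rose by edgeR. DESeq2 called 1 member higher and 2 lower. Il6st, the shared receptor chain gp130, was at 68.4, 56.6, 75.3 and 67.2 CPM in Cort NPD and 33.8, 42.8, 42 and 39.2 CPM in Cort HPD (-0.76 ± 0.14, adjusted p = 0.00221). Il1r1, the interleukin 1 receptor, was at 17.3, 12.8, 14 and 13.3 CPM and 7.11, 5.93, 3.82 and 4.67 CPM (-1.41 ± 0.27, adjusted p = 0.00342), a call lost when Veh HPD replicate 4 was kept. Of 36 complement and coagulation genes 3 fell and 1 rose, against 2.80% and 3.08% of all genes tested, with a median of -0.234. C3, the central complement protein, was at 1585, 1530.4, 2173 and 2484 CPM and 1099, 1058, 1135 and 1126 CPM (-0.81 ± 0.16, adjusted p = 0.00434), and F5, coagulation factor V, at 398, 406, 538 and 644 CPM and 255, 276, 278 and 299 CPM (-0.84 ± 0.16, adjusted p = 0.00221). In both, replicates 3 and 4 of Cort NPD were the highest, and all Cort HPD libraries were below all Cort NPD libraries. Serpind1 rose by 0.64 ± 0.18 and C1ra fell by 0.48, calls lost in 9 and 15 of 25 settings.

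Of 33 tested genes of the unfolded protein response and chaperones of the endoplasmic reticulum 4 fell in Cort HPD, none rose by edgeR and 7 had a positive fold change, with a median of -0.416 and of -0.184 in Veh livers. Of 16 chaperones 2 fell, with medians of -0.451 under Cort and -0.432 in Veh livers. None of the 7 sensors and regulators was called by edgeR or DESeq2, and none had an unadjusted p under 0.05. The median of the 33 was -0.284 without Cort NPD replicate 3, when 3 fell, and 1 fell without both that library and Cort HPD replicate 1. Calr, the chaperone calreticulin, was at 635, 549, 591 and 429 CPM in Cort NPD and 226, 341, 331 and 363 CPM in Cort HPD (-0.81 ± 0.17, adjusted p = 0.00756). Herpud1, which serves degradation at the endoplasmic reticulum, was at 307, 267, 251 and 201 CPM and 118, 158, 119 and 161 CPM (-0.89 ± 0.20, adjusted p = 0.0101). Sel1l fell by 0.77 and P4hb by 0.45, the latter lost in 19 of 25 settings. Of 32 autophagy genes 2 rose and 1 fell, against 3.08% and 2.80% of all genes tested, and 1 rose without Cort NPD replicate 3. Gabarapl1, a tag of autophagosome membranes, was at 271, 321, 253 and 242 CPM and 343, 451, 501 and 461 CPM (0.69 ± 0.15, adjusted p = 0.00923), and Sqstm1, the cargo receptor p62, at 188, 219.7, 184 and 264 CPM and 223, 510.0, 389 and 369 CPM (0.80 ± 0.20, adjusted p = 0.0221), with Cort HPD replicate 1 inside the Cort NPD range and an adjusted p of 0.0773 without Cort NPD replicate 3. Wipi1 fell by 0.67 (lost in 7).

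Of 18 genes of the periportal zone, where urea synthesis and glucose output are strongest, 4 rose and none fell, with a median of 0.326 under Cort and 0.321 in Veh livers. The count was 1 without Cort NPD replicate 3, and 1 with library totals and no TMM factors. They were Arg1 and Ass1, given above, Etnppl, a phosphoethanolamine lyase, and Aldh1b1, an aldehyde dehydrogenase. Etnppl was at 133, 165, 132 and 178 CPM in Cort NPD and 183, 309, 269 and 336 CPM in Cort HPD (0.85 ± 0.19, adjusted p = 0.00894), and Aldh1b1 at 103, 115, 81.9 and 82.9 CPM and 148, 161, 146 and 168 CPM (0.70 ± 0.16, adjusted p = 0.0141, and 0.0542 without Cort NPD replicate 3). Neither overlapped between the diets. Of 18 pericentral genes 1 rose, Oat, and 2 fell, Rhbg and the organic cation transporter Slc22a3, the latter by 1.18 (lost in 7 of 25 settings).

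Some markers of other cells of the liver differed with the diet, while 3.08% of all genes tested were called higher and 2.80% lower. Of 7 red blood cell genes 4 rose and 1 fell, with a summed level of 5283 to 7643 CPM in Cort HPD against 1368 to 3554 in Cort NPD. Hbb-bs, a beta-globin, was at 1262, 2011, 880.1 and 1309 CPM in Cort NPD and 4479, 3112, 4977 and 3301 CPM in Cort HPD (1.54 ± 0.27, adjusted p = 0.00172), and its near-identical neighbour Hbb-bt rose by 1.65 ± 0.27. These globin levels did not overlap. Slc4a1, the red cell anion exchanger, had at most 2 reads in each Cort NPD library and 1, 29, 35 and 13 in Cort HPD, and Alas2, the red cell enzyme of heme synthesis, fell by 0.70 with overlapping groups (lost in 8). Bpgm, which makes the bisphosphoglycerate of red cells, rose by 0.90 ± 0.17. These genes are named after their values were seen. The part of blood in the livers was not tested.

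Of 10 tested sinusoidal endothelial markers 3 fell, with all 10 fold changes negative, a median of -0.615 and a summed level of 181.4 to 190.7 CPM in Cort HPD against 226.8 to 327.4 in Cort NPD. Veh livers held 217.5 to 270.2 CPM with the NPD and 246.2 to 263.5 with the HPD. Ptprb, an endothelial phosphatase, was at 19.6, 18.5, 41.3 and 37.5 CPM in Cort NPD and 12.4, 12.8, 10.9 and 11.9 CPM in Cort HPD (-1.29 ± 0.22, adjusted p = 0.00112), and Kdr, a VEGF receptor, at 26.6, 20.4, 55.1 and 49.9 CPM and 14.1, 17.5, 23 and 20.4 CPM (-1.02 ± 0.27, adjusted p = 0.0345, lost in 9 of 25 settings). Cort NPD replicates 3 and 4 were the highest libraries for both. Pecam1, given above, was the other fall. Outside the list, and named after their values were seen, the scavenger receptor Stab1 fell by 1.08 and the VEGF receptors Flt4 and Flt1 by 1.27 and 1.05. Without either Cort NPD replicate 3 or Cort HPD replicate 1, 1 of the 10 markers was called, with medians of -0.543 and -0.554. With the length trend removed 4 fell with a median of -0.642.

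Of 10 stellate cell and fibroblast markers 1 fell, Reln, by 0.95 (lost in 10 of 25 settings), with a median of -0.759 over the list. Kupffer cell markers rose in part, with 2 of 12 higher and 1 lower, a median of 0.475 and a summed level of 202.4 to 352.4 CPM in Cort HPD against 160.9 to 223.9 in Cort NPD. Clec4f, a lectin of Kupffer cells, was at 18.5, 15.3, 16.7 and 17.2 CPM in Cort NPD and 37.4, 25.2, 32.9 and 19.4 CPM in Cort HPD (0.76 ± 0.17, adjusted p = 0.00833), below the Veh NPD range of 44.9 to 47.8 CPM. Cd5l rose by 0.88 ± 0.21 and Cd163 fell by 1.13 (lost in 8). With both outlying libraries left out none of the 12 was called by edgeR. No marker of adipocytes, exocrine pancreas, bile duct, lymphocytes, neutrophils or dendritic cells was called by edgeR, with 3 of 6, 0 of 6, 1 of 7, 2 of 7, 1 of 5 and 0 of 1 at an unadjusted p under 0.05, and DESeq2 called 1 adipocyte marker. Lymphocyte markers summed to 2.572 to 4.312 CPM in Cort NPD and 3.388 to 7.27 in Cort HPD, against 12.2 to 30.11 in Veh livers, and 2 of the 13 had no read in any Cort library.

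Other lists held no called gene. None of 19 circadian clock genes, 21 cell cycle and p53 genes or 25 genes of the mitochondrial respiratory chain was called by edgeR, with 3, 1 and 5 at an unadjusted p under 0.05 and 1 of each list called by DESeq2. All 25 respiratory chain genes had a positive fold change, against 6074 of the 12391 genes tested, with a median of 0.227. Without Cort HPD replicate 1, 22 were positive and 3 negative, with a median of 0.128. With library totals and no TMM factors 17 were positive and 8 negative, with a median of 0.0534, when 3930 of the 12391 genes were positive. The genes in the lowest decile of transcript length had a median of 0.124. With the length trend removed 24 of the 25 were positive and 1 negative, with a median of 0.159, and 1 was called higher. Transcripts of the mitochondrial genome took 15.5% to 20.8% of reads in Cort HPD against 14.5% to 14.8% in Cort NPD. The 20.8% was that of Cort HPD replicate 1, and the next highest was 17.5% in replicate 4.

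**Figure D4:**
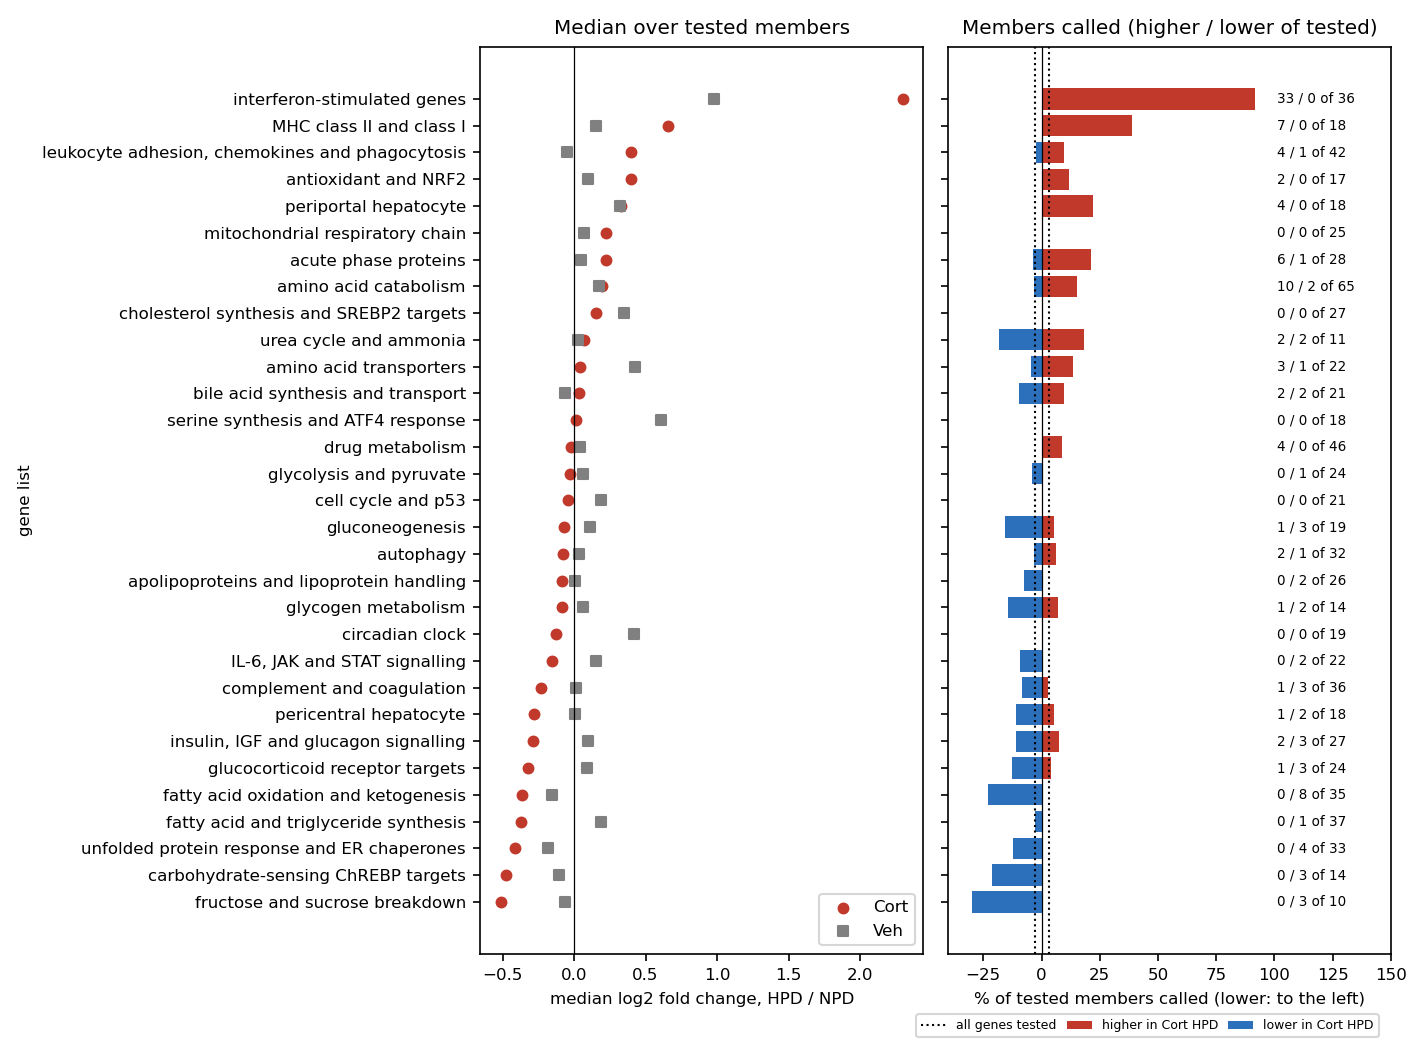
On the left, each list's median log2 fold change, HPD over NPD, is shown for Cort (red circles) and Veh (grey squares) livers. On the right, bars give the percent of tested members called higher (red) or lower (blue) in Cort HPD, with dotted lines at the share over all genes tested; the interferon-stimulated genes stand furthest to the right, with 33 of 36, and fructose and sucrose breakdown furthest to the left, with 3 of 10.

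The same diet contrast in Veh livers called 21 of the 12391 genes (0.169%), 13 higher and 8 lower, with 1165 at an unadjusted p under 0.05. Of these, 9 were also among the 729 called under Cort, all with the same direction. They were Csad, Tfrc, Slc17a8, Dsc2, Clec2h, Aldh1b1, Col27a1, Cyp2d40 and Gm17634. Csad in Veh livers was at 111, 96.5, 107 and 77 CPM with the NPD and 22.6, 23.8 and 27.3 CPM with the HPD (-1.99 ± 0.21, adjusted p = 2.99e-05), a difference close in size to that under Cort. Of the 382 genes higher in Cort HPD, 298 (78.0%) had a positive fold change in Veh livers, with a median of 0.255, and of the 347 lower 201 (57.9%) had a negative one, with a median of -0.0634. Over all genes tested, 6692 of 12391 (54.0%) had the same sign under Cort and in Veh, close to the share of the lower genes. The test of the difference between both diet effects called 14 genes (0.113%), of which 13 were also called under Cort. A gene called under Cort and not in Veh was thus in most cases not shown to differ between them.

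Hsd17b6 differed most, with -0.79 ± 0.27 in Veh against 3.30 ± 0.27 under Cort (difference 4.09 ± 0.38, adjusted p = 4.08e-05). The difference for Ugt2b35 was 1.58 ± 0.25 (adjusted p = 0.012) and for Defb1 1.71 ± 0.30 (adjusted p = 0.0355). In the other direction were Chst15, a sulfotransferase of chondroitin, at -1.68 ± 0.30 (adjusted p = 0.0355), Grn, progranulin, at -1.16 ± 0.22, and Lpp, an adhesion scaffold, at -1.42 ± 0.27, the latter both with an adjusted p of 0.044. Grn was at 198, 286, 245 and 277 CPM in Cort NPD and 137, 195, 168 and 193 CPM in Cort HPD, and at 84.7, 96, 101 and 98.9 CPM in Veh NPD and 155, 154 and 132 CPM in Veh HPD, so that it was lower with the HPD under Cort and higher with it in Veh livers. None of the 36 listed interferon-stimulated genes passed this test by edgeR. Oas1c, an oligoadenylate synthetase gene outside that list, did, at -0.64 ± 0.46 in Veh and 2.51 ± 0.38 under Cort (adjusted p = 0.044). The number of genes that differed was 2 to 39 when single libraries were left out. Hsd17b6 passed in all 24 alternatives that allowed this test and Ugt2b35 in 23, while the others passed in 16 or fewer.

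**Figure D5:**
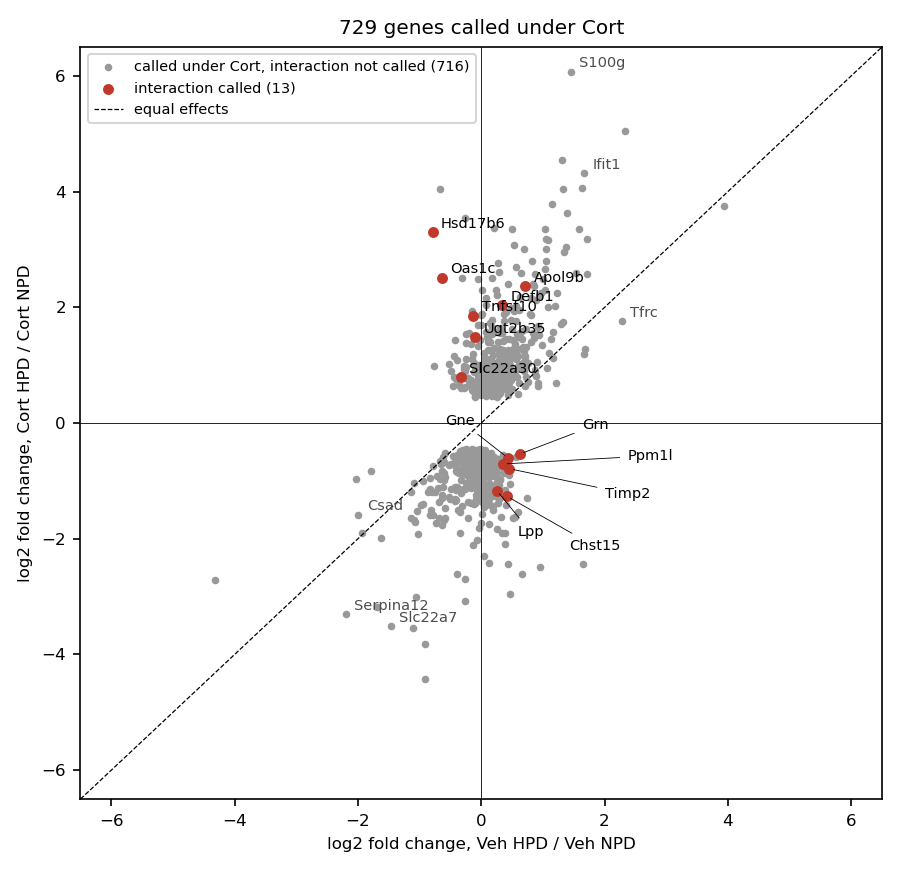
Each point is one of the 729 genes called under Cort, with the log2 fold change, HPD over NPD, in Veh livers on the horizontal axis and in Cort livers on the vertical axis, and the dashed line marks equal effects. Most points lie closer to 0 on the Veh axis than on the Cort axis, Csad and Tfrc lie near the dashed line, and the 13 coloured genes are those whose diet effects differed between Cort and Veh.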

How the data were processed

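Male mouse liver was profiled by QuantSeq 3′ mRNA-seq. The authors deposited raw read counts per gene for 32 libraries, 16 of them liver, and the submitters' processing notes name GRCm38 (mm10), R 4.0.3 and limma. The aligner, the counter and its use of strand are not given in the sources used here, so that reads of antisense or overlapping genes may be mixed. Total counts ran from 8933307 to 17447524 in the 15 liver libraries fitted, Veh HPD replicate 4 being left out as in the study. Genes were kept by filterByExpr (minimum count 10, minimum total 15), scaled by TMM factors and tested by quasi-likelihood fits of 4 group means in edgeR 4.0.16 (R 4.3.3), two-sided, with Benjamini-Hochberg adjustment over 12391 genes and a threshold of 0.05. Standard errors are the size of the log2 fold change over the root of F. The fits were tested on simulated counts. Muscle genes were set aside where Cort NPD replicate 3 held at least 5 CPM and 5 times every other liver library. Alternatives were RLE or no scaling factors, DESeq2 1.42.0, voom in limma 3.58.1, no filter, other sets of libraries, the replicate number as a block, each library left out and, chosen after seeing the data, both outlying libraries left out and each library's trend with transcript length removed (lowess span 0.3).

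Named genes were up to 12 called genes per direction, ranked by p, whose Cort groups did not overlap, up to 6 called members of each list, 15 genes of hormone and sugar control, and up to 3 genes per direction by the interaction test. Some genes that this rule names are not reported here. The comparison and the gene lists were chosen with earlier results of these data known. Replicates within a group differed by more than counting noise in every pair. In Cort NPD, replicates 1 and 3 and replicates 2 and 4 differed least over all genes. Their chi-square of counts per degree of freedom was 27.2 and 31.6, against 40.2 to 74.3 for the other pairs. What set these pairs apart was not tested. The labels do not say whether replicates are separate animals, so that p-values measure only the spread between these libraries.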

Additional observations from a re-analysis of the deposited data

Results flagged for a closer look

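The diet effect differed between Cort and Veh livers for 14 genes by edgeR's interaction test. The difference, Cort minus Veh on the log2 scale, was 4.09 for Hsd17b6 (adjusted p = 4.08e-05), 1.58 for Ugt2b35 (0.012), 1.71 for Defb1 (0.0355) and -1.68 for Chst15 (0.0355). With an adjusted p of 0.044 came Grn at -1.16, Lpp at -1.42, Slc22a30 at 1.13, Apol9b at 1.65 and Oas1c at 3.15. With an adjusted p of 0.0499 came Igf2r at -1.10, Timp2 at -1.24, Tnfsf10 at 1.99, Gne at -1.03 and Ppm1l at -1.06. Slc22a30 is an organic anion transporter gene and Tnfsf10 encodes the death ligand TRAIL. Igf2r, the mannose-6-phosphate receptor, was the only one of the 14 not called under Cort, at -0.46 ± 0.15 there and 0.64 ± 0.16 in Veh. Hsd17b6 passed in 24 of 24 alternatives and Ppm1l in 2.

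A single library lay far from the other 3 of its group by Dixon's ratio in 11 of 182 groups of 4 tested, where chance gives about 1 in 20. Cort HPD replicate 1 accounted for 6 of these. It was the highest for Ifit1 at 1568 CPM (others 289 to 414), Isg15 at 413.7 CPM (133 to 142), Ifih1 at 38.9 CPM, Slc3a1 at 162.4 CPM and Crtc2 at 10.1 CPM, and the lowest for Cps1 at 978 CPM. Cort HPD replicate 3 was the highest for Gsta2 at 100.1 CPM. Among Cort NPD libraries, replicate 2 was the highest for Hsd17b6 at 17.8 CPM and Isg15 at 24.4 CPM, replicate 1 for Zbtb16 at 17.1 CPM and replicate 4 for Fasn at 438.5 CPM. The cause of these values was not tested.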

How the results depend on the processing

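The 729 genes called by diet under Cort became 371 with all 16 liver libraries, 356 to 757 when single libraries were left out, with the fewest without Cort NPD replicate 3, and 350 without both outlying libraries. DESeq2 called 1075, limma voom 1034, no filter 696, the length trend removed 714, the 8 Cort libraries alone 559, and library totals without TMM factors 951, of which 564 were among the 729. The 14 interactions became 9 with RLE factors, 23 without TMM factors, 130 with DESeq2, 9 with limma voom, 72 without the filter, 1 with all 16 libraries, 3 without both outlying libraries and 2 with the length trend removed. Leaving out single libraries gave 2 to 39 interactions. The 39 came without Veh HPD replicate 1, and 9 or fewer came without any 1 Veh NPD library, Veh HPD replicate 2 or 3, Cort NPD replicate 3 or 4, or Cort HPD replicate 2, 3 or 4. The 21 genes called in Veh became 7 with all 16 libraries. Without TMM factors the list medians moved to 0.0511 for amino acid catabolism, -0.699 for fructose and sucrose breakdown, -0.548 for fatty acid oxidation and ketogenesis and -0.571 for the unfolded protein response, and the last was -0.366 to -0.284 without Cort HPD replicate 1 or Cort NPD replicate 3. The cause of these changes was not tested.

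Same-numbered Cort NPD and Cort HPD libraries deviated with correlations of -0.102, 0.0314, -0.147 and -0.0242 across genes, and 1 of 8 libraries correlated best with its own number. Such correlations cannot show whether same-numbered libraries were handled together, and the labels do not say what the numbers mean. With the replicate number as a block 644 genes were called under Cort and 10 interactions. No called gene among those named changed sign in any alternative, whereas 9 named genes that were not called did, as did 11 of 42 list medians, such as urea cycle and ammonia, at 0.0662 and -0.0855 without TMM factors. Interactions rested on 3 Veh HPD libraries, and intervals for genes with a few reads in a library are wide.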
